A study of Mus musculus with 6 samples.

Results

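The genes described here are the aminoacyl-tRNA synthetases, the enzymes that load each amino acid onto its tRNA. Members were chosen by gene symbol: 20 genes of the cytosolic class and 16 of the mitochondrial class, all 36 found among 52550 rows of a table of mouse heart expression. The symbols ending in 2, which include Ears2, form the mitochondrial class. The libraries came from the left ventricle of 12-month-old C57BL/6J mice, with 3 wild-type libraries (WT) and 3 labelled PKI, a genotype that the labels describe as overexpressing PGC1alpha. PGC1alpha, encoded by Ppargc1a, is a coactivator of genes for mitochondrial biogenesis and respiration. What the letters PKI stand for, the promoter or allele behind the overexpression and the sex of the mice were not stated in the sources used here. The labels number the samples and do not say whether each is an animal of its own. The p-values therefore measure only how these samples vary, which may be a technical spread.

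Charging a tRNA is the step that makes the genetic code readable by the ribosome, and every cell needs an enzyme for each amino acid. Proteins of the cytosol and proteins encoded by mitochondrial DNA are made with largely separate sets of enzymes, both encoded in the nucleus. In the heart, the mitochondrial set serves the translation of a small number of respiratory chain subunits, and inherited defects of several of these enzymes cause cardiomyopathy. Many cytosolic synthetases are also targets of ATF4, a transcription factor made when amino acids are short or when mitochondria are stressed. Several cytosolic synthetases sit together in a multisynthetase complex held by 3 scaffold proteins.

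Values are FPKM, fragments scaled by transcript length and by library total, as deposited. Differences are PKI minus WT on the log2(FPKM + 1) scale, on which low genes appear to change less than they do. A gene is called higher or lower where the limma test, adjusted by Benjamini-Hochberg over all 9907 genes that averaged 1 FPKM or more, gave an adjusted p under 0.05. Over those genes 36.4% were called higher and 2.96% lower, and the median difference was 0.21 on the log2 scale. Because this shift ran through the whole table, the differences are also given after scaling each library by the median of its ratios to the gene-wise geometric means, which brought the median difference of all genes to -0.02. After scaling 7.82% of all tested genes were called higher and 9.18% lower. The targeted gene went against its label: Ppargc1a stood at 14.2, 12.8 and 12.4 FPKM in the WT libraries and at 11.6, 11.8 and 11.4 FPKM in the libraries labelled PKI (log2 difference -0.16, SE 0.07, limma adjusted p 0.0967). After scaling Ppargc1a was called lower (log2 difference -0.44, limma adjusted p 0.00521). The label overexpressed therefore has no counterpart in the Ppargc1a level of this table, and each direction below is that of the libraries labelled PKI.

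Summed levels of cell type markers differed between the groups too. Fibroblast markers summed to 114 to 170 FPKM in WT and to 334 to 404 FPKM in the libraries labelled PKI, with 9 of 10 called higher, also after scaling. Macrophage markers summed to 71.8 to 109 FPKM in WT and 215 to 232 FPKM in PKI, with 9 of 9 tested called higher and 7 after scaling. Cardiomyocyte markers, the defining genes of the labelled tissue, were abundant in both groups (9317 to 10146 FPKM in WT, 9897 to 10850 FPKM in PKI), and of their 8 genes 2 were called higher and 3 lower, after scaling 0 higher and 6 lower (median -0.37). Endothelial markers summed to 148 to 153 FPKM in WT and 160 to 178 FPKM in PKI, with 3 of 10 called higher, a share below that of all tested genes. After scaling 0 endothelial markers were called higher and 1 lower, and 7 of 10 differences were below 0. Smooth muscle markers summed to 125 to 154 FPKM and 189 to 227 FPKM, with 4 of 8 called higher, and 1 higher and 1 lower after scaling. Erythroid markers were lower (380 to 538 against 274 to 338 FPKM, 5 of 5 tested called lower, also after scaling). The atrial sum of 276 to 488 FPKM in WT and 670 to 1502 FPKM in PKI was carried by Nppa, the natriuretic peptide gene and the only atrial marker called higher. The other 5 of 6 atrial markers had differences below 0, and the list's median was -1.03. Lymphocyte and neutrophil markers summed to at most 4.24 FPKM in any library, and Ly6g was listed at 0 in all 6. The part of these cell types in the synthetase values was not tested. In bulk tissue, fewer cells of a type and less RNA per cell cannot be told apart.

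In deposited values 13 of 20 cytosolic synthetases and 1 of 14 tested mitochondrial ones were called higher in the libraries labelled PKI, beside 36.4% of all tested genes. All 20 cytosolic members passed the expression filter. Of these, 0 were called lower and 7 passed neither way, and the median log2 difference was 0.39, beside 0.21 over all tested genes. At an unadjusted p under 0.05, 0 cytosolic members were lower. Of the 16 mitochondrial members 14 passed the filter, and the 1 called higher was Rars2, with 0 called lower and a median of 0.017; at an unadjusted p under 0.05 none was lower either. The summed level of the 20 cytosolic genes was 130, 121 and 120 FPKM in the WT libraries and 161, 169 and 169 FPKM in the PKI libraries. Every PKI sum lay above every WT sum, by 1.34-fold on the means. The mitochondrial sums were 42.4, 44.8 and 45.7 FPKM in WT against 47.2, 44.5 and 46.1 FPKM in PKI, a 1.04-fold ratio of means. These groups overlapped. After scaling the cytosolic sums were 141, 134 and 134 in WT and 144, 149 and 153 in PKI. The scaled mitochondrial sums were 46.0, 49.6 and 50.9 in WT and 42.2, 39.3 and 41.8 in PKI. Every scaled PKI sum lay above every WT sum for the cytosolic class and below it for the mitochondrial class. The ratio of the cytosolic to the mitochondrial sum, which no scaling of a library can change, was 2.80 ± 0.235 in WT and 3.62 ± 0.194 in PKI (SD, n = 3 each).

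**Figure D1:**
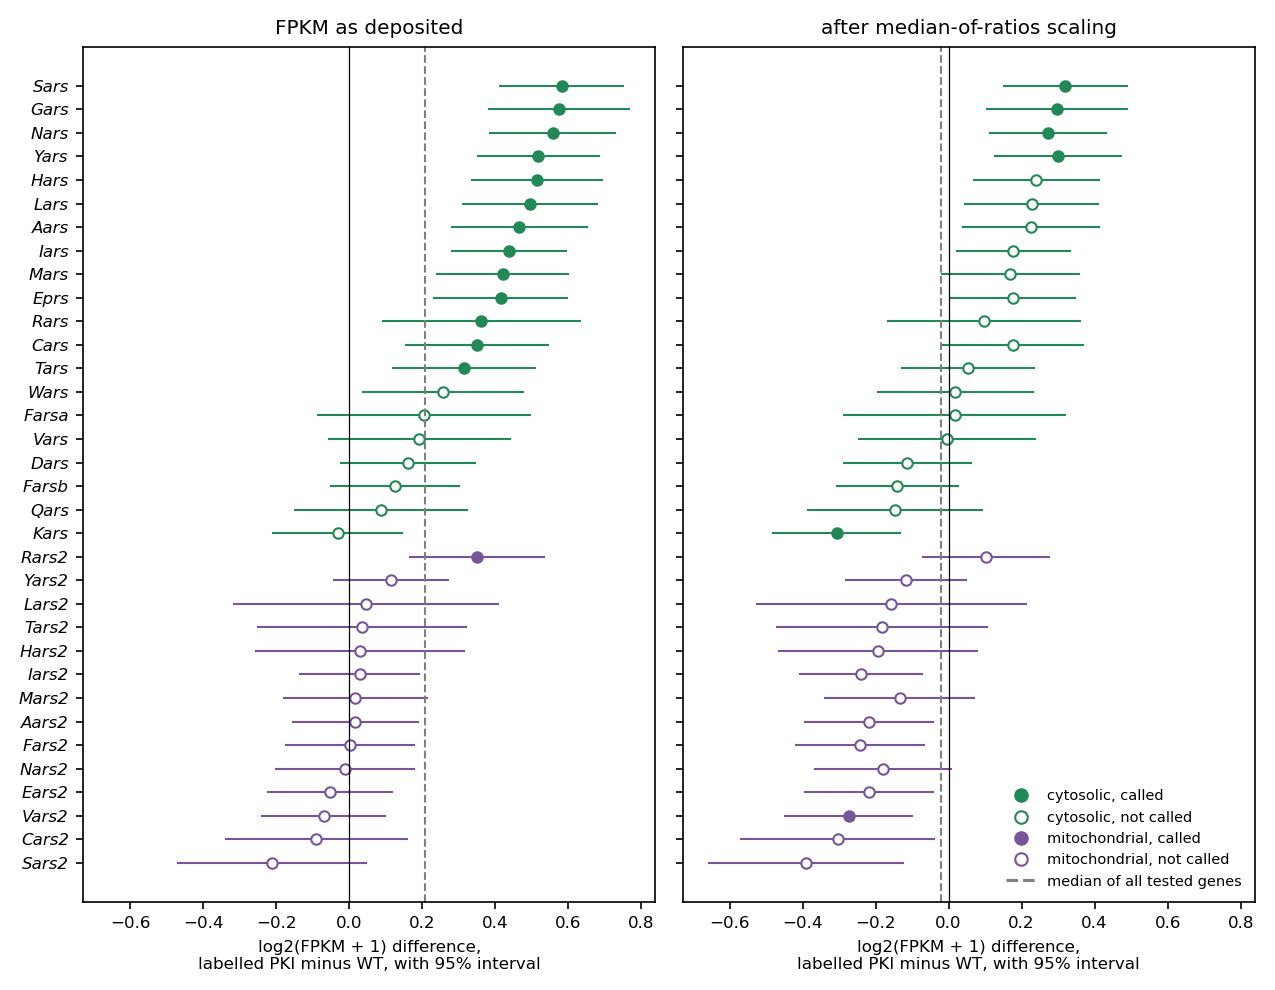
Log2 differences (PKI minus WT, log2(FPKM + 1) scale) of the members that passed the filter of 1 FPKM, with their 95% confidence intervals from limma, as deposited and after scaling. Most cytosolic members lie to the right of the median of all tested genes and 13 of 14 tested mitochondrial members lie to its left.

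After scaling, the split between the classes remained in the medians, while the number of calls shrank. The cytosolic median was 0.17 and the mitochondrial median -0.21, beside -0.02 for all tested genes. Of the cytosolic members 4 were called higher (Sars, Gars, Nars and Yars) and 1 lower (Kars), and 9 were higher and 1 lower at an unadjusted p under 0.05. Of the mitochondrial members 0 were called higher and 1 was called lower (Vars2), with 0 higher and 7 lower at an unadjusted p under 0.05. Few of these scaled calls held in smaller sets: with any 1 of the 6 libraries left out, 0 to 2 cytosolic members were called higher. In the same fits the number called higher over all tested genes went from 775 to between 419 and 763. In deposited values every PKI value exceeded every WT value for 14 of 20 cytosolic members and for 2 of 14 tested mitochondrial members, beside 51.3% of all tested genes. After scaling the cytosolic count was 11 of 20, beside 16.6% of all tested genes. Conversely, 9 of 14 tested mitochondrial members and 2 of 20 cytosolic ones then had every PKI value below every WT value, beside 20.7% of all tested genes.

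Levels of the cytosolic synthetases spread widely. By mean FPKM in WT, which is per length, Nars, the asparagine enzyme, was the highest (17.1 FPKM), ahead of Kars, the lysine enzyme (11.8), Gars, the glycine enzyme (10.7), and Dars, the aspartate enzyme (10.4). Cars, the cysteine enzyme, was the lowest at 1.14 FPKM. Of the 19 neighbouring pairs in that order 13 had overlapping WT values, so the order is only coarse. Nars stood apart from Kars below it, and Kars, Gars and Dars overlapped in turn. In PKI no cytosolic member moved by more than 3 places. Among the mitochondrial members Iars2, the isoleucine enzyme, was the highest in WT (9.09 FPKM) and stood apart from Fars2, the phenylalanine enzyme (4.59 FPKM). Pars2, the proline enzyme, was the lowest at 0.331 FPKM, and 8 of 15 neighbouring pairs overlapped.

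**Figure D2:**
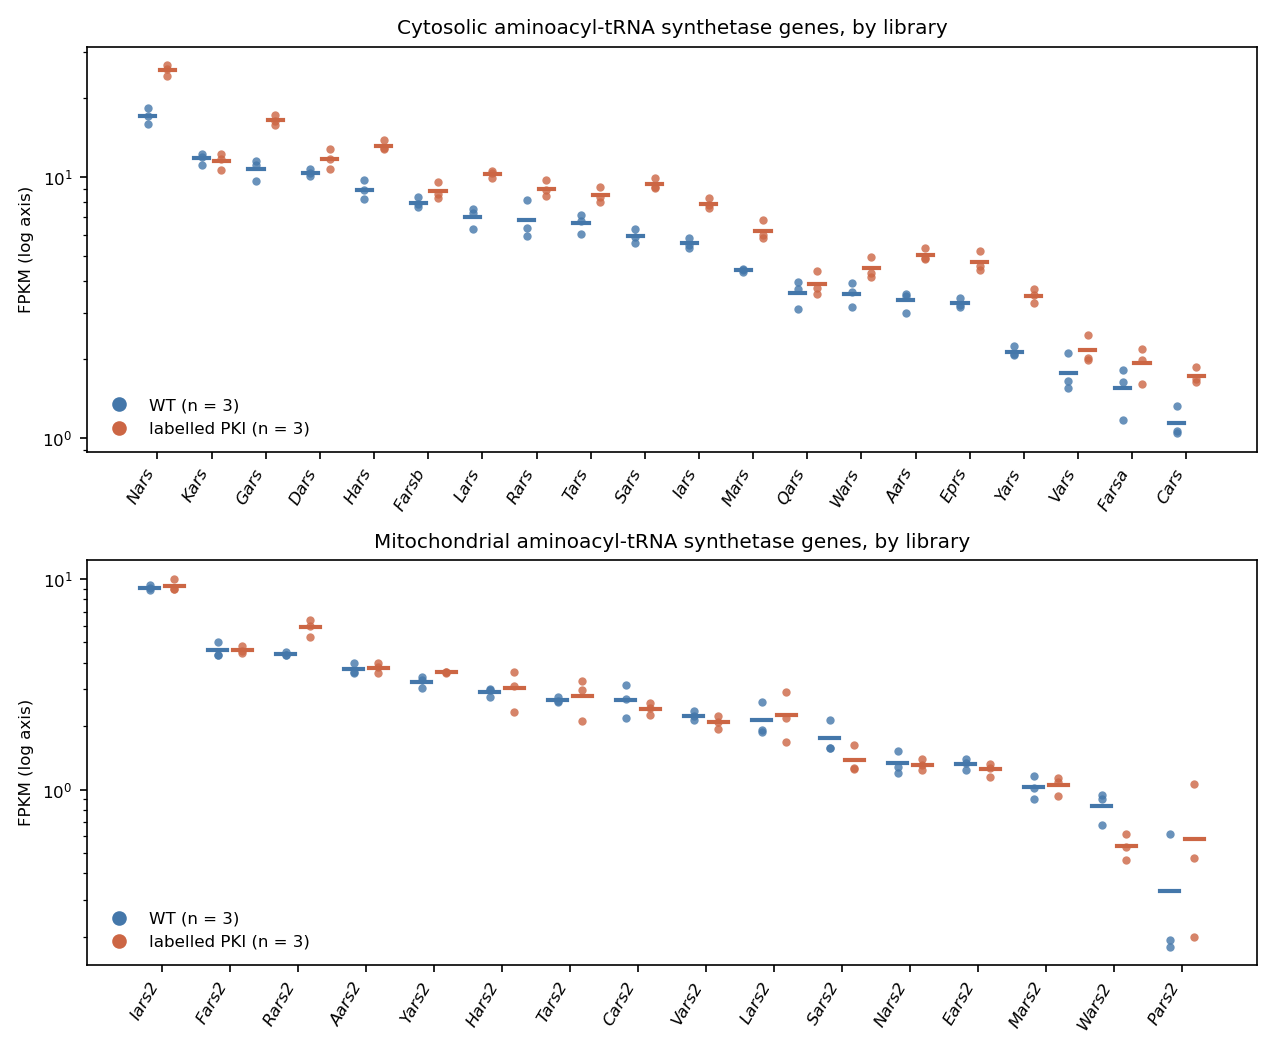
Level of each member in each of the 6 libraries (FPKM, log axis), cytosolic members in the upper panel and mitochondrial members in the lower, ordered by WT mean, with short lines for group means. The PKI points lie above the WT points for most cytosolic members and mingle with them for most mitochondrial members.

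Sars, the serine enzyme, had the smallest p of the members. It stood at 6.33, 5.58 and 5.91 FPKM in the WT libraries and at 9.16, 9.09 and 9.89 FPKM in the PKI libraries. The lowest PKI value was well above the highest WT value. The difference was 1.58-fold (log2 0.58, SE 0.07, limma adjusted p 0.00192; after scaling 0.32, adjusted p 0.0241). Sars lies on chromosome 3 from 108424865 to 108445209 on the minus strand (GRCm38, GENCODE M21), and no stretch of 50 bases of its transcripts occurs in another gene's.

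Gars makes both the cytosolic and the mitochondrial glycine enzyme from the same gene. Its level was 11.5, 9.60 and 11.1 FPKM in WT and 15.8, 16.4 and 17.2 FPKM in PKI. The groups lay far apart, and WT replicate 2 was the lowest. The ratio of means was 1.53-fold (log2 0.57, SE 0.08, limma adjusted p 0.00321), and after scaling 0.30 with an adjusted p of 0.0477. Kars, too, is the gene of both forms of its enzyme, that of lysine. Its values were 12.3, 11.9 and 11.1 FPKM in WT and 10.6, 11.7 and 12.2 FPKM in PKI, which overlapped (log2 difference -0.03, limma adjusted p 0.753). After scaling every PKI value of Kars lay below every WT value, and it was called lower (-0.31, limma adjusted p 0.0311). That scaled call held in 1 of the 6 fits that leave out a library, the fit without PKI replicate 3, and the scaled call of Gars held in 0 of 6.

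Nars carried the largest number of FPKM added among the members. It rose from 18.3, 17.1 and 15.9 FPKM in WT to 24.4, 26.7 and 25.9 FPKM in PKI (1.50-fold, log2 0.56, limma adjusted p 0.00237; after scaling 0.27, adjusted p 0.0342). No values overlapped. Yars, the tyrosine enzyme, was a low gene with the largest ratio of means among the called members. Its values were 2.08, 2.10 and 2.25 FPKM in WT and 3.72, 3.28 and 3.52 FPKM in PKI. This was a 1.64-fold difference (log2 0.52, SE 0.07, limma adjusted p 0.00272), and after scaling 0.30 with an adjusted p of 0.0321. With a library left out, the scaled calls of Nars and Yars each held in 1 of 6 fits and that of Sars in 2 of 6.

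A second tier was called in the deposited values and not after scaling. Hars, the histidine enzyme, stood at 9.69, 8.24 and 8.90 FPKM in WT and 13.8, 12.9 and 12.8 FPKM in PKI (1.47-fold, limma adjusted p 0.00359; after scaling 0.0648). The PKI values were all above the WT values. Lars, the leucine enzyme and a leucine sensor of the mTORC1 pathway, stood at 7.53, 6.31 and 7.25 FPKM in WT and 9.92, 10.4 and 10.6 FPKM in PKI (1.46-fold, limma adjusted p 0.00445; after scaling 0.0891). Again no values overlapped. Aars, the alanine enzyme, stood at 3.51, 3.56 and 3.02 FPKM in WT and 4.84, 4.88 and 5.35 FPKM in PKI (1.49-fold, limma adjusted p 0.00558; after scaling 0.0975). Of the 50-base stretches in Aars transcripts 13.8% occur in other genes, nearly all in the overlapping Exosc6, which was listed at 0.218 FPKM in WT and 0.454 FPKM in PKI, so reads of the overlap could be split between them. Iars, the isoleucine enzyme of the cytosol, stood at 5.36, 5.85 and 5.51 FPKM in WT and 7.81, 8.29 and 7.61 FPKM in PKI (1.42-fold, limma adjusted p 0.00403; after scaling 0.113). Its lowest PKI value was above its highest WT value. Of the Iars stretches 7.15% also occur in Gm4849.

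The remaining called cytosolic members were Mars, Eprs, Cars, Rars and Tars. After scaling none of these 5 was called, with log2 differences of 0.17, 0.18, 0.18, 0.10 and 0.05 (limma adjusted p 0.200, 0.147, 0.195, 0.610 and 0.698). Mars, the methionine enzyme, stood at 4.32, 4.43 and 4.40 FPKM in WT and 5.97, 5.82 and 6.86 FPKM in PKI (1.42-fold, limma adjusted p 0.00682). Its 3′ end overlaps that of Ddit3, the stress factor CHOP, on the other strand, and 0.545% of its 50-base stretches occur there. Eprs joins the glutamate and the proline enzyme in a single protein and stood at 3.45, 3.18 and 3.24 FPKM in WT and 4.41, 5.21 and 4.55 FPKM in PKI (1.44-fold, limma adjusted p 0.00773). Both genes had PKI values above all WT values. Cars stood at 1.33, 1.07 and 1.04 FPKM in WT and 1.64, 1.68 and 1.87 FPKM in PKI (1.51-fold, limma adjusted p 0.0169). Its call was lost without WT replicate 2, WT replicate 3 or PKI replicate 3 (highest adjusted p 0.0586). Rars, the arginine enzyme, stood at 8.17, 5.95 and 6.40 FPKM in WT and 8.42, 8.88 and 9.73 FPKM in PKI (1.32-fold, limma adjusted p 0.0425). WT replicate 1 came close to the PKI values, and the call of Rars held only in the fit without that library. Tars, the threonine enzyme, stood at 7.15, 6.76 and 6.06 FPKM in WT and 8.01, 9.18 and 8.38 FPKM in PKI (1.28-fold, limma adjusted p 0.0236). Its call was lost without WT replicate 2, WT replicate 3, PKI replicate 2 or PKI replicate 3. The other 10 called cytosolic members kept their call in all 6 of these fits.

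The 7 cytosolic members that did not pass had smaller differences. Wars, the tryptophan enzyme, stood at 3.93, 3.63 and 3.16 FPKM in WT and 4.95, 4.15 and 4.30 FPKM in PKI (log2 difference 0.26, limma adjusted p 0.0622), without overlap of the groups. The subunits of the cytosolic phenylalanine enzyme, Farsa and Farsb, differed by 0.21 and 0.13 on the log2 scale (limma adjusted p 0.211 and 0.204), and WT and PKI values overlapped for both. Vars, the valine enzyme, differed by 0.19, Dars by 0.16 and Qars, the glutamine enzyme, by 0.088 (limma adjusted p 0.175, 0.135 and 0.496), with overlapping groups each. After scaling Farsb was at -0.14, Dars at -0.11, Qars at -0.15 and Vars at -0.0040, so these 4 flipped to the lower side without a call. The misses do not show that these genes were alike in both groups: the 95% interval for Vars ran from -0.055 to 0.44 before scaling.

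Groupings of the enzymes by structure had close counts. Over all tested genes 36.4% were called higher (median 0.21), and after scaling 7.82% higher and 9.18% lower. Of the class I enzymes, grouped by the fold of their catalytic domain, 7 of 10 cytosolic members were called higher (median 0.39), and of the class II enzymes 6 of 10 (median 0.39). Of the 8 genes for enzymes of the multisynthetase complex (Dars, Eprs, Iars, Kars, Lars, Mars, Qars and Rars) 5 were called higher with a median of 0.39, and of the other 12 cytosolic members 8 with a median of 0.41. After scaling the complex genes had 0 called higher and 1 lower (median 0.13), and the other 12 had 4 called higher (median 0.20). The 3 scaffold genes of the complex were called higher in the deposited values. Aimp2 stood at 4.91, 4.65 and 4.68 FPKM in WT and 6.93, 5.90 and 6.42 FPKM in PKI (1.35-fold, limma adjusted p 0.0102). Aimp1 was 1.43-fold and Eef1e1 1.37-fold higher (limma adjusted p 0.0121 and 0.0495). After scaling none of the 3 was called, and their median was 0.11.

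Counts lay further apart in a grouping by reported regulation, a list that was chosen with earlier results of these data known. Of 13 cytosolic members listed here as reported ATF4 targets (Aars, Cars, Eprs, Gars, Iars, Lars, Mars, Nars, Sars, Tars, Vars, Wars and Yars) 11 were called higher, with a median of 0.44. Of the other 7 (Dars, Farsa, Farsb, Hars, Kars, Qars and Rars) 2 were, with a median of 0.16. After scaling the counts were 4 of 13 and 0 of 7, with medians of 0.18 and -0.11. Over all tested genes 36.4% were called higher, and 7.82% after scaling. These are counts and medians with no test of the difference between the groupings. As the list was not drawn up blind to these data, they are a description only, and regulation by ATF4 was not tested.

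Promoter sequences are shown for members whose window holds the letters that ATF4 and its partners of the C/EBP family recognise. RefSeq windows (GRCm38.p6, 250 bases before to 50 after the start) matched 13 cytosolic and 14 mitochondrial members. The motif searched was TGATGNAA, known as the C/EBP-ATF response element, on both strands. It was found in 5 of 13 cytosolic members (38.5%), in 0 of 14 mitochondrial members and in 4.51% of all 27025 genes with a window. Capitals mark the match, and each stretch is written on the strand of its gene.
Aars, chr8:111033700-111033767, plus strand: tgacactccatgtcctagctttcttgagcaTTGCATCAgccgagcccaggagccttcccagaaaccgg
Gars, chr6:55037941-55038000, plus strand: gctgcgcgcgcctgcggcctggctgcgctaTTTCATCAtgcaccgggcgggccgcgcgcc
Tars, chr15:11399659-11399703, minus strand: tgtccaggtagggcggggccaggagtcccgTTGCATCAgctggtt
Iars, chr13:49682115-49682144, plus strand: gttgagcctggcactgtcagtaTTGCATCA
Yars, chr4:129189884-129189913, plus strand: caagcggagcgacgagctcagcTGATGCAA
The matches began 112 bases before the start in Aars, 30 before it in Gars and 15 before it in Tars. In Iars the match began at base 8 and in Yars at base 4 after the start. Aars held a further match from base 10 to base 17 after the start. Yars carries the letters on the gene's own strand and the other 4 on the opposite strand.

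All 5 cytosolic members with these letters were called higher in the deposited values, with log2 differences of 0.32 to 0.57 and a median of 0.47. Of the 8 cytosolic members with a window and no match 3 were called higher (Sars, Eprs and Mars), with a median of 0.18. Cars, Hars, Lars, Nars, Rars, Vars and Wars had no window and are left out of both counts. All of these except Vars and Wars were called higher too. After scaling, Gars and Yars of the 5 and Sars of the 8 were called, with medians of 0.23 and -0.048. Among all tested genes 36.4% were called higher (median 0.21), and 7.82% after scaling (median -0.02). The difference between members with and without a match was not tested. The E-box letters CACGTG of MYC and related factors were in 4 of 13 cytosolic members (Aars, Farsb, Iars and Tars). They were in 1 of 14 mitochondrial ones (Ears2), beside 8.09% of all genes with a window. The letters AAGGTCA are bound by the oestrogen-related receptors that work with PGC1alpha. These letters were in 0 of 13 and 0 of 14 members, beside 5.38% of all genes with a window. A match is a description of the letters, not a bound site.

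Mitochondrial members differed in their promoter letters. The core GCATGCGC of NRF1, a regulator of nuclear genes for mitochondria, was in 3 of 14 mitochondrial members (Rars2, Vars2 and Wars2, 21.4%). It was in 0 of 13 cytosolic ones and in 3.05% of all genes with a window. The stretches of Rars2, the only mitochondrial member called higher in the deposited values, and of Vars2, the only one called lower after scaling, are shown on the strand of the gene with the match in capitals.
Rars2, chr4:34614876-34614943, plus strand: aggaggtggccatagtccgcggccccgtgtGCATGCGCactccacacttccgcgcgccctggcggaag
Vars2, chr17:35667601-35667668, minus strand: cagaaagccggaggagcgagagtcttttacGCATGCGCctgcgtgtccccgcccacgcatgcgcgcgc
The match began 51 bases before the start in Rars2 and 46 before it in Vars2, which holds a further match, in lower case here, from 20 bases before the start. In deposited values the log2 difference was 0.35 for Rars2, which was called higher, and -0.07 for Vars2, which was not called (limma adjusted p 0.451). The scaled call of Vars2 held in 0 of the 6 fits that leave out a library, so an opposite sign is not established. Regulation by NRF1 was not tested.

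Rars2, the arginine enzyme of mitochondria, was the exception in its class. It stood at 4.37, 4.34 and 4.50 FPKM in WT and 6.00, 6.42 and 5.32 FPKM in PKI. The WT values were tightly grouped and every PKI value was above them. The ratio of means was 1.34-fold (log2 0.35, SE 0.08, limma adjusted p 0.0138), a call that held in all 6 fits that leave out a library. After scaling the difference was 0.10 (limma adjusted p 0.400).

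Vars2, the valine enzyme, stood at 2.15, 2.23 and 2.35 FPKM in WT and 2.24, 1.94 and 2.10 FPKM in PKI, which overlapped (log2 difference -0.07, limma adjusted p 0.451). After scaling it was called lower (-0.27, limma adjusted p 0.0459), and that call held in 0 of the 6 fits that leave out a library. Sars2, the serine enzyme, had the lowest difference of the tested members. Its values were 1.58, 2.14 and 1.57 FPKM in WT and 1.25, 1.27 and 1.63 FPKM in PKI (log2 difference -0.21, limma adjusted p 0.158; after scaling -0.39, adjusted p 0.0559). WT replicate 2 was the highest, PKI replicates 1 and 2 lay below every WT value, and PKI replicate 3 lay among the WT values. Yars2, the tyrosine enzyme, was the other mitochondrial member with every PKI value above every WT value. It stood at 3.03, 3.41 and 3.30 FPKM against 3.63, 3.56 and 3.60 FPKM, a log2 difference of 0.11 that was not called (limma adjusted p 0.200).

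For the other 10 tested mitochondrial members the log2 difference was within 0.1 of 0 and the groups overlapped. Iars2, the most abundant, stood at 8.87, 9.05 and 9.35 FPKM in WT and 10.0, 8.95 and 8.94 FPKM in PKI (log2 difference 0.029, 95% interval -0.13 to 0.19, limma adjusted p 0.753). Of its 50-base stretches 22.7% also occur in Rab3gap2 or another overlapping gene, and Rab3gap2 itself was called higher (1.40-fold, limma adjusted p 0.0276), so its level is uncertain. Fars2 stood at 4.36, 5.03 and 4.37 FPKM in WT and 4.53, 4.78 and 4.46 FPKM in PKI, a log2 difference of 0.0026. The means of Aars2, the alanine enzyme whose defects cause infantile cardiomyopathy, were 3.73 ± 0.236 FPKM in WT and 3.79 ± 0.211 FPKM in PKI (SD, n = 3). After scaling Iars2 and Fars2 were both at -0.24 and Aars2 at -0.22, with limma adjusted p of 0.0594, 0.0686 and 0.0924. Cars2, Ears2 and Nars2, the cysteine, glutamate and asparagine enzymes, were slightly below 0 already in the deposited values (-0.09, -0.051 and -0.011, limma adjusted p 0.508, 0.585 and 0.921). Hars2, Lars2, Mars2, Tars2 and Yars2 turned from above to below 0 on scaling, without a call.

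Of the 16 mitochondrial genes 2 were below the filter and were not tested. Wars2, the tryptophan enzyme, stood at 0.940, 0.683 and 0.898 FPKM in WT and 0.461, 0.536 and 0.616 FPKM in PKI. Every PKI value was below every WT value, in deposited and in scaled values. Pars2 stood at 0.194, 0.180 and 0.618 FPKM in WT and 0.199, 0.472 and 1.07 FPKM in PKI, with overlapping groups. Mars2, the methionine enzyme, was just inside the filter with a mean of 1.04 FPKM.

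Pairing each cytosolic enzyme with its mitochondrial counterpart in the same library gives a ratio of FPKM that does not depend on library scaling. There were 13 such pairs. In 9 of them every PKI ratio exceeded every WT ratio, in 0 every PKI ratio was below, and in 4 the groups overlapped (Lars, Rars, Tars and Vars with their counterparts). The difference in log2 ratio of FPKM + 1 was above 0 in 13 of 13 pairs, with a median of 0.44. The added 1 makes this form depend somewhat on scaling. In the plain FPKM ratio the mean of the arginine pair was slightly lower in PKI (1.54) than in WT (1.55). With 3 libraries against 3 an exact two-sided permutation test cannot give a p below 0.1, and over the 13 pairs the smallest Benjamini-Hochberg adjusted value was 0.144. The pair counts are therefore a description, and no share over other gene pairs is given beside them.

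The serine pair moved most. Sars over Sars2 was 4.01, 2.60 and 3.76 in WT and 7.31, 7.15 and 6.08 in PKI, with no overlap. The tryptophan pair, Wars over Wars2, rested on the low values of Wars2, and its ratio went from 4.34 ± 0.904 in WT to 8.48 ± 1.98 in PKI (SD, n = 3). For alanine the mitochondrial gene was the more abundant in WT, with Aars over Aars2 at 0.977, 0.889 and 0.838, and the cytosolic one in PKI, at 1.21, 1.37 and 1.40. In the asparagine pair the ratio went from 12.9 ± 1.15 to 19.6 ± 1.77, and in the tyrosine pair from 0.661 ± 0.0397 to 0.974 ± 0.0531 (SD, n = 3). The arginine pair was level. Rars over Rars2 was 1.55 ± 0.274 in WT and 1.54 ± 0.252 in PKI (SD, n = 3). The histidine pair shares its locus: Hars and Hars2 lie head to head with overlapping starts, and 5.95% of the 50-base stretches of Hars occur in other genes, nearly all in Hars2. Hars over Hars2 was 3.28, 2.98 and 2.96 in WT and 3.80, 4.16 and 5.48 in PKI.

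**Figure D3:**
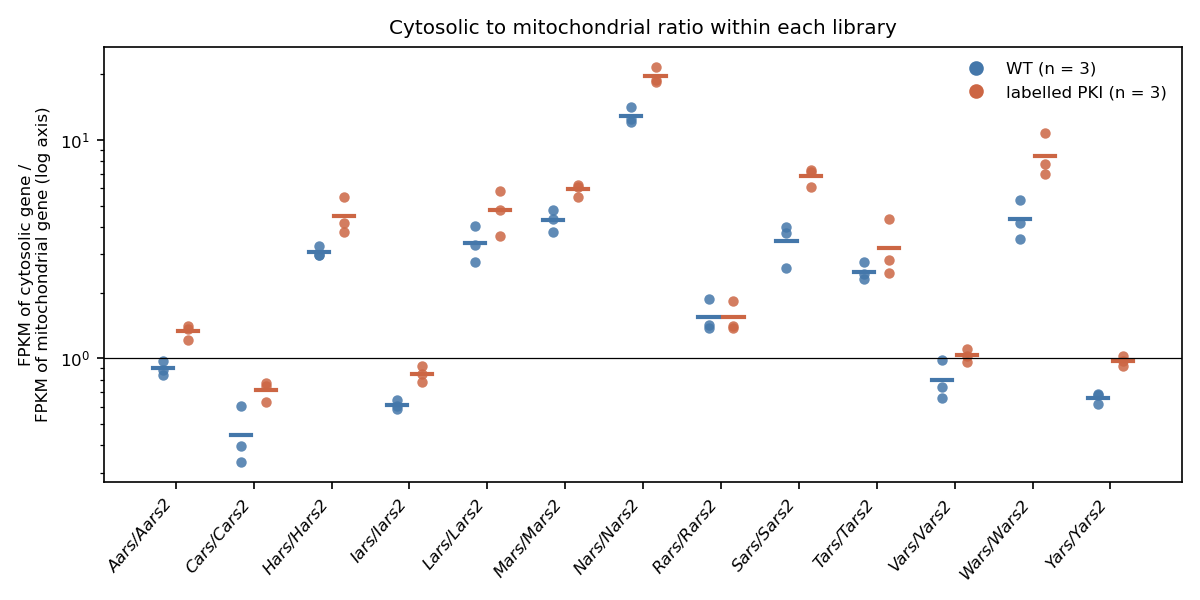
Ratio of each cytosolic synthetase to its mitochondrial counterpart within each library (FPKM over FPKM, log axis), 3 WT and 3 PKI libraries per pair. In 9 of 13 pairs the PKI points all lie above the WT points, and the mean lines of the arginine pair are level. Short lines are means.

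The other genes of the pathway were described from lists of related genes. Further genes of tRNA charging, such as Tarsl2 and the subunits of the mitochondrial glutamyl-tRNA amidotransferase, had a median close to that of the mitochondrial class. Of 11 tested 1 was called higher, beside 36.4% of all tested genes, and the list had a median of 0.0044. The called gene was Prorsd1 (1.45-fold, limma adjusted p 0.0107, and 0.196 once scaled). Of the tested genes 1 passed the filter only through its PKI values and was not called. After scaling 0 of 11 were called higher and 4 lower, with a median of -0.23, beside 9.18% of all tested genes called lower. They included Tarsl2 (-0.38), Gatb (-0.29) and Gatc (-0.27), with limma adjusted p of 0.00818, 0.0342 and 0.0217.

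Genes for tRNA processing and export followed the median of all genes. Of 21 tested 9 were called higher and 0 lower (median 0.20), beside 36.4% and 2.96% of all tested genes. After scaling none was called (median -0.03), with 0 called higher and 0 lower in limma, beside 7.82% and 9.18%. Clp1 passed the filter only through its PKI values and was not called. Xpot, the exporter of tRNA from the nucleus, was 1.32-fold, Nsun2, a tRNA methyltransferase, 1.26-fold and Pus1, a pseudouridine synthase, 1.29-fold higher in the deposited values (limma adjusted p 0.00867, 0.0123 and 0.0188). Of 12 mitochondrial translation factors 1 was called higher (Gfm1, an elongation factor, 1.17-fold, limma adjusted p 0.0225), with a median of 0.11. After scaling Tufm, the mitochondrial elongation factor Tu, and Lrpprc, which stabilises mitochondrial mRNA, were called lower (-0.43 and -0.21, limma adjusted p 0.0210 and 0.0490).

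Of 15 amino acid transporters 8 passed the filter, 3 of them (Slc7a5, Slc7a6 and Slc36a1) only through their PKI values, since their WT means were below 1 FPKM. Genes that passed in this way had to differ, so the counts of this list describe the tested genes only. Of the 8, 7 were called higher (median 0.58), and after scaling 3 were, beside 36.4% and 7.82% of all tested genes. Slc38a2, a transporter of small neutral amino acids, stood at 22.1, 18.9 and 18.9 FPKM in WT and 35.7, 37.2 and 34.5 FPKM in PKI (1.79-fold, limma adjusted p 0.000917; after scaling 0.53, adjusted p 0.00388). Slc3a2 and Slc7a5, which together form a carrier of leucine and other large amino acids, were 1.84-fold and 2.74-fold higher. For Slc3a2 the limma adjusted p was 0.00211, and 0.0145 after scaling. No p is given for Slc7a5, which passed the filter only through its PKI values. All 3 had PKI values above all WT values.

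Of 23 genes in the list of ATF4 and its targets outside the synthetases 14 passed the filter, and Mthfd2, Gdf15, Atf3 and Nupr1 passed only through their PKI values. Genes that passed in this way had to differ, so these counts describe the tested genes only. Of the 14, 10 were called higher (median 0.65), beside 36.4% of all tested genes (median 0.21). After scaling 7 were higher and 2 lower (Stc2 and Vldlr), beside 7.82% and 9.18% of all tested genes. Atf4 stood at 21.1, 20.4 and 18.9 FPKM in WT and 34.4, 30.9 and 38.7 FPKM in PKI, a 1.72-fold difference (limma adjusted p 0.00196) without overlap. Aldh18a1, an enzyme of proline synthesis, was 2.01-fold higher (limma adjusted p 0.00138). Mthfd2, a mitochondrial folate enzyme, stood at 0.320, 0.194 and 0.215 FPKM in WT and 2.74, 2.81 and 4.32 FPKM in PKI. Gdf15, a secreted stress factor, stood at 0.759, 0.498 and 0.269 FPKM in WT and 3.03, 3.68 and 3.91 FPKM in PKI. Neither had overlapping groups. Asns, which makes the asparagine that Nars uses, was below the filter at 0.256, 0.161 and 0.150 FPKM in WT and 1.33, 0.582 and 1.39 FPKM in PKI, without overlap. Of 16 tested genes for amino acid sensing and the kinases of eIF2, 10 were called higher (median 0.29). After scaling 0 were higher and 1 was lower (Sesn1), beside the same shares of all tested genes. Impact, a modulator of the kinase GCN2, was 1.46-fold, Eif2s1, the phosphorylated subunit of eIF2, 1.34-fold and Mtor 1.41-fold higher (limma adjusted p 0.00262, 0.00662 and 0.00670).

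**Figure D4:**
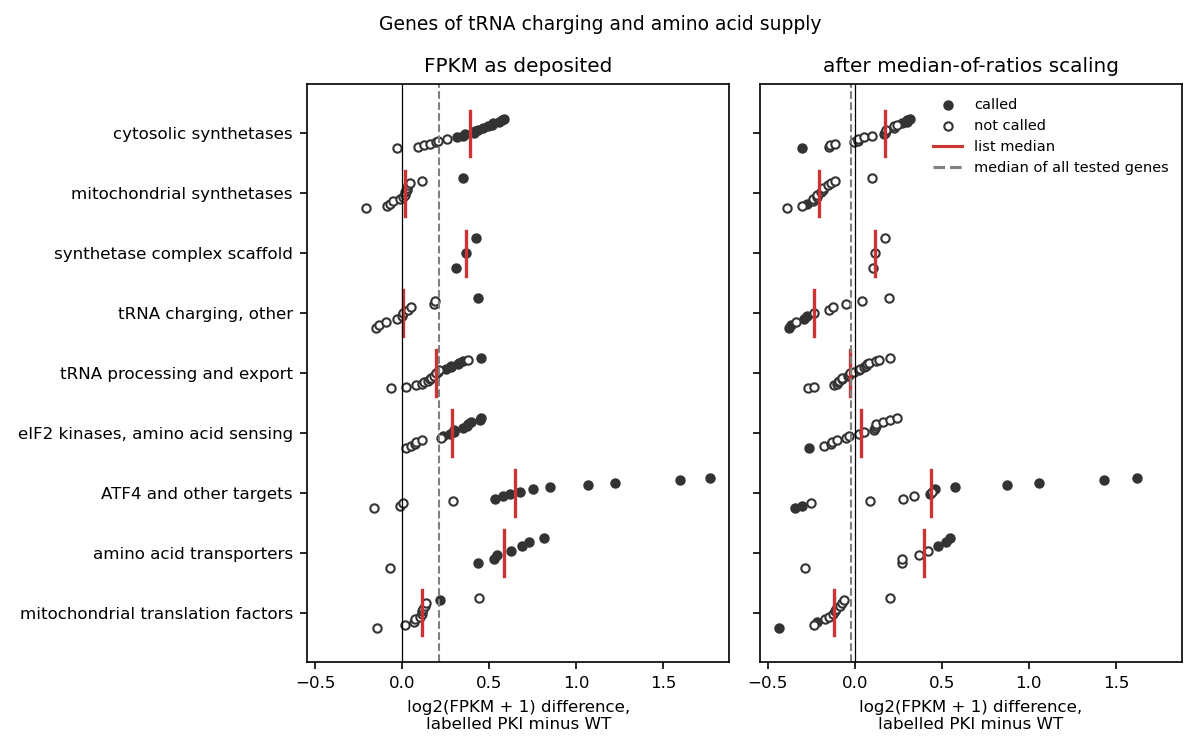
Log2 differences of single genes (PKI minus WT, log2(FPKM + 1) scale) in the 2 member classes and the other lists, as deposited (left) and after scaling (right); filled points passed the limma test at an adjusted p under 0.05, and the vertical bars are medians. The median of the cytosolic class (0.39) lies right of that of all tested genes (0.21) and the median of the mitochondrial class (0.017) left of it; only genes past the filter are drawn.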

How the data were processed

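RNA-seq libraries of left ventricle (TruSeq RNA kit, per the labels' protocols) were analysed from the FPKM values that the authors deposited for 52550 genes. CASAVA, Bowtie 0.12.2 and the build mm9 are listed in the submitters' processing notes, without a role. The program, annotation and use of strand behind the FPKM are not given in the labels or notes, and sequencing depth is unknown. Gene positions come from GENCODE M21 (GRCm38) by gene ID, with no conversion from mm9, and promoters from RefSeq (GRCm38.p6, 27 of 36 members matched).

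Genes averaging 1 FPKM or more across all 6 libraries were tested as log2(FPKM + 1) in R 4.3.3 by limma 3.58.1 (variance trend, two-sided), with Benjamini-Hochberg adjustment over 9907 genes. The fit was tested on simulated data. Scaling by median of ratios used factors of 0.898 to 0.922 for WT and 1.10 to 1.13 for the PKI libraries. Alternatives were other pseudocounts and filters, quantile normalisation, a total without mitochondrial-genome genes, no trend, a replicate block and each library left out. Members and lists, the marker lists included, were chosen with earlier results of these data known. Library values are given for called members, class extremes, sign changes and members below the filter, and for the 3 genes of smallest p in each other list. Asns and the named scaled calls of other lists were picked with their values in view, as were the leave-out fits on scaled values. A gene of the other tRNA charging list is not reported here.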

Additional observations from a re-analysis of the deposited data

How the results depend on the processing

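Library scaling was the choice that moved the results most. The 13 cytosolic calls became 4 with median-of-ratios scaling, 4 with quantile normalisation and 0 with the replicate block on scaled values. The cytosolic count called lower went from 0 to 1 with median-of-ratios scaling and to 1 with quantile normalisation. Of all 9907 tested genes, 3609 called higher became 775, 753 and 533 in the same settings, in that order. The 293 called lower became 909, 762 and 553. The cytosolic median of 0.39 became 0.17 with scaling, 0.16 with quantile normalisation, 0.17 with the replicate block on scaled values, 0.49 with a pseudocount of 0.1 and 0.45 with 0.5. With a library left out it ranged from 0.34 to 0.42. The mitochondrial call became 0 with scaling, 0 with quantile normalisation and 0 with the replicate block on scaled values, and the count called lower went from 0 to 1 with scaling and to 2 with quantile normalisation. The mitochondrial median of 0.017 became -0.21 with scaling, -0.22 with quantile normalisation, -0.21 with the replicate block on scaled values and 0.19 with a minimum mean of 5 FPKM, a filter that keeps fewer genes. With a library left out it ranged from -0.017 to 0.033. With a library left out of the scaled values, 0 to 2 cytosolic members were called higher, 0 to 1 lower, and 0 to 1 mitochondrial members lower. These fits called 419 to 763 higher and 438 to 851 lower over all tested genes. The cause of these moves was not tested.

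Of single members, 12 changed sign with scaling, with the same values under the replicate block on scaled values: Aars2 -0.22, Dars -0.11, Fars2 -0.24, Farsb -0.14, Hars2 -0.19, Iars2 -0.24, Lars2 -0.16, Mars2 -0.13, Qars -0.15, Tars2 -0.18, Vars -0.0040 and Yars2 -0.12. With quantile normalisation 13 did: Aars2 -0.22, Dars -0.099, Fars2 -0.24, Farsa -0.0082, Farsb -0.12, Hars2 -0.21, Iars2 -0.22, Lars2 -0.18, Mars2 -0.19, Qars -0.15, Tars2 -0.20, Vars -0.024 and Yars2 -0.12. With the total taken without mitochondrial-genome genes, Fars2 was at -0.0016. With a library left out, members near 0 changed sign: Kars ranged from -0.071 to 0.022, Aars2 from -0.012 to 0.058, Fars2 from -0.026 to 0.059, Hars2 from -0.077 to 0.16, Iars2 from -0.021 to 0.054, Lars2 from -0.092 to 0.18, Mars2 from -0.028 to 0.064, Nars2 from -0.051 to 0.045 and Tars2 from -0.058 to 0.17. The cause was not tested. Rars and Tars lost their call with no filter (limma adjusted p 0.104 and 0.0531). The lower pseudocounts and the fit without a variance trend changed no member's sign or call.

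The labels do not say whether the replicate numbers pair the samples. Deviations of same-numbered libraries had correlations of -0.104, 0.0012 and 0.053 across genes, beside -0.128 to 0.112 for differently numbered ones. With 3 libraries per group these correlations cannot decide whether samples were paired. With the replicate block on deposited values 11 cytosolic members were called higher, as Rars (limma adjusted p 0.0756) and Tars (0.0509) were lost, and Rars2 was still called. Over all tested genes the block left 2625 higher and 224 lower of 3609 and 293, and on scaled values 533 and 553 of 775 and 909. Without a filter 24705 genes were tested, with 2746 higher and 231 lower, and a minimum mean of 5 FPKM left 3935 genes, with 1739 and 186. Depth is unknown, so the precision of low members such as Wars2, Pars2 and Mars2 cannot be given beyond the spread of 3 libraries.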
